A study of Arabidopsis thaliana with 36 samples.

Results

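The columella is the central part of the root cap of Arabidopsis thaliana, and these data hold its transcript profile on standard medium as 3 arrays out of 36 in all. The 3 arrays were chosen by their labels alone and were set against the 15 standard-medium arrays of 5 other root populations, over every probe set on the array. All populations came from roots of seedlings of the Columbia ecotype that were 6 days old. Roots were digested to protoplasts, fluorescent cells were sorted, and RNA was amplified in a 2-cycle protocol before hybridisation to the Affymetrix ATH1 array. Each population was sorted by 1 green fluorescent reporter line: PET111 marked the columella root cap, WER::GFP the epidermis and lateral root cap, CORTEX the cortex, SCR::GFP the endodermis and quiescent centre, WOL::GFP the stele, and S32 the protophloem. Each population was therefore only as pure as 1 reporter and 1 sort made it. Each had 3 replicate arrays on standard medium and 3 more after 1 h on medium with 140 mM NaCl. The latter serve here as a check and in a test of the difference between media. Whether replicates came from separate sorts or plantings is not said in the labels, and the p-values then cover only array-to-array spread, which may be technical.

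The columella is a short stack of cell files at the very tip of the root. Its cells are renewed by stem cells below the quiescent centre, mature into gravity-sensing statocytes whose starch-filled plastids settle with gravity, and are finally shed from the root surface. Starch synthesis, redistribution of auxin, loosening of cell walls and programmed death are therefore the processes for which this tissue is best known. The lateral root cap, which lies beside the columella, was sorted here with the epidermis and not with the columella.

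The values are signal intensities, in the arbitrary units of the authors' MAS5 summary, and differences were tested on log2(signal + 16). Median signal per array was 95.6, 92.0 and 87.1 in columella replicates 1, 2 and 3. The columella arrays resembled each other more than any other array, with Pearson correlations of 0.940 to 0.955 across probe sets among themselves and at most 0.908 with an array of another population. Its mean profile was nearest to the stele (r = 0.881) and farthest from the protophloem (r = 0.811). For GAPDH the signal of the 5′ control probe set over that of the 3′ one, a sign of how complete the amplified RNA was, came to 0.0884, 0.131 and 0.301 in the columella. It ran from 0.0195 to 0.0830 in the protophloem and from 1.41 to 1.71 in the epidermis, so it differed between populations, and its part in the results was examined only as a covariate. Stele replicate 3 stood apart from its group, correlating at 0.917 with an endodermis array and at 0.905 to 0.908 with its own replicates. In sorted bulk samples, fewer cells that express a gene and less RNA of it per cell cannot be told apart.

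The label of the columella arrays was checked against marker genes. The summed signal of the 4 columella markers, JRG21, AT1G26680, AT5G02070 and AT1G65570, was 10518 to 15154 in the columella arrays and at most 902 in any other array, a protophloem one. These markers came with the description of the columella and were drawn from these data, so the gap describes the arrays and tests nothing. Summed markers of the cortex, phloem, epidermis and endodermis were lower in the columella than in their own populations. These lists, too, were chosen with earlier results of these data known, so their sums are not an independent check. The summed signal of the 3 measured cortex markers was 37.6 to 83.7 there against 5874 to 6892 in the cortex. The 4 measured phloem markers summed to 34.4 to 64.3 against 14514 to 22646 in the protophloem. Epidermis and root hair markers reached 187 to 451, with 3 of 10 listed genes measured, against 3466 to 3993 in the epidermis. Of these 3 markers 0 were higher and 0 lower than the mean of the other 5 populations by the test. Their sum averaged 306 in the columella, 1043 in the stele, 269 in the cortex, 259 in the endodermis and 57.4 in the protophloem. Endodermis markers reached 89.6 to 125 against 2192 to 4116 in the endodermis. Quiescent centre and stele markers came nearer to the level of their own populations. The 2 measured quiescent centre markers summed to 134 to 208 against 239 to 365 in the population that holds the quiescent centre, and stele markers to 597 to 862 in the columella against 1049 to 1362 in the stele. The quiescent centre level was not particular to the columella. The sum averaged 166 there, 142 in the cortex, 172 in the stele, 246 in the protophloem and 58.4 in the epidermis. Of its 2 markers 1 was higher in the columella and 1 lower. Of 12 listed stele markers 3 were measured, of which 1 was higher in the columella, 1 was lower and 1 did not pass the test. Their differences from the mean of the other populations ran from -0.79 to 1.89, with a median of -0.06. Among these 3, PHV, a homeodomain-leucine zipper factor, read 386, 407 and 326 in the columella, near its stele mean of 381. No listed marker was at 0 on every columella array, and the part of these signals in the results below was not tested.

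Against the mean of the other 5 populations, 3401 of 16740 probe sets tested (20.3%) were higher in the columella and 2497 (14.9%) were lower, by limma with Benjamini-Hochberg adjusted p under 0.05. After quantile normalisation the split turned to 2843 higher and 3328 lower, or 46.1% higher against 57.7% as deposited, as that scaling moved the median difference of all probe sets from 0.05 to -0.09. Without columella replicate 2 the count of lower probe sets was 1535. A stricter rule asked in addition for a columella mean at least 2-fold above the highest or below the lowest of the other population means, with folds taken on signal + 16. By this rule 584 probe sets (3.49%) were enriched and 44 (0.263%) were depleted. The count of depleted probe sets was 26 without columella replicate 2 and 89 without columella replicate 3, while that of enriched ones stayed between 572 and 672 when any 1 array was left out. The offset of 16 limits how far a fold below can reach where the signal is low, so depths above and below are not on equal terms. Of the enriched probe sets 167 exceeded every other population by 4-fold, 62 by 8-fold, 20 by 16-fold and 3 by 32-fold, and 3 of the depleted ones lay 4-fold under every other population and 0 lay 8-fold under. In 548 of the 584 and 32 of the 44 the 3 columella arrays did not overlap the other 15, against 982 (5.87%) above and 134 (0.8%) below among all probe sets tested. The strict rule used these same arrays, so the high shares are in large part fixed by the choice. Among probe sets that name 1 gene, the weakest enriched one exceeded the next population by 1.01 (log2). The first one left out exceeded it by 1.00, just short of the limit.

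The contrast with single populations showed where the columella profile lay. By count of calls the largest gap was with the epidermis and lateral root cap, where 5226 probe sets (31.2%) were higher in the columella and 3596 (21.5%) lower. By correlation of mean profiles the protophloem was farther (r = 0.811, against 0.838 for the epidermis). The GAPDH ratio averaged 1.52 in the epidermis and 0.173 in the columella, and its part in these counts was not tested. Against the cortex 4212 (25.2%) were higher and 2567 (15.3%) lower, and against the protophloem 3779 (22.6%) were higher and 2669 (15.9%) lower. Against the endodermis 3094 (18.5%) were higher and 2280 (13.6%) lower. Against the stele, 2683 (16%) were higher and 3053 (18.2%) lower, so the stele was the population against which lower calls outnumbered higher ones. These 5 contrasts share the columella arrays, and the splits depended on scaling: after quantile normalisation 2627 probe sets were higher and 3019 lower than in the cortex, and 3771 higher and 4176 lower than in the epidermis. For the 584 enriched probe sets the second-highest population was the epidermis in 162 (27.7%, against 22.9% of all probe sets tested), the stele in 132 (22.6% against 21.8%), the protophloem in 117 (20.0% against 24.5%), the endodermis in 96 (16.4% against 13.8%) and the cortex in 77 (13.2% against 16.9%).

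The genes most enriched in the columella ranged from ones that were low in every other population to ones with a sizeable signal in a single other population. The top 18 were taken only from genes whose 3 columella arrays did not overlap the other 15. The lack of overlap in these 18 was therefore fixed by the choice. JRG21, a jasmonate-regulated gene that encodes a jasmonate oxidase, read 3817, 2452 and 1488 in the columella arrays and 12.5 to 95.3 (median 27.8) in the other 15. The groups did not overlap, and the columella mean was 37.1-fold above that of the endodermis, the next population (difference from the other 5 of 5.69 ± 0.28 on the log2 scale, standard error; adjusted p = 3.69e-11, limma). AT1G26680 read 2177, 3030 and 2209 against 3.45 to 71.9 (median 20.2), which placed it 34.4-fold above the protophloem. AT5G02070 read 1092, 2244 and 1361 against 1.94 to 45.4 (median 10.8), or 31.1-fold above the epidermis. For both, the lowest columella array lay far above the highest array of any other population. AT1G65570, which is on the list for cell separation in the root cap, had the highest signal of these genes, at 8068, 3619 and 5461. Its other 15 arrays ran from 2.15 to 812 (median 46.0), with the highest value in replicate 3 of the protophloem, and its excess over that population was 26.4-fold (difference 5.84 ± 0.66, adjusted p = 1.31e-06).

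Metabolic and auxin-related genes followed. PPDK, pyruvate orthophosphate dikinase, which interconverts pyruvate and phosphoenolpyruvate, read 2156, 1214 and 2441 in the columella and 3.73 to 107 (median 37.4) elsewhere. Its columella arrays stood clear of all others, 19.1-fold over the epidermis mean (difference 5.29 ± 0.37, adjusted p = 2.65e-09). IAA33, of the Aux/IAA family, most members of which repress auxin response, read 2619, 2822 and 1331 against 2.89 to 203 (median 26.9), again without overlap and 15-fold over the epidermis. AT5G51470 read 2380, 3889 and 2858 against 1.67 to 174 (median 10.7) and had the largest difference from the mean of the other 5 among these genes, 6.24 ± 0.26. It fell behind in the order by excess, at 17.6-fold, because its epidermis mean was 155. The remaining genes among the top 18 were AT2G28870 (25.1-fold over the next population), AT3G55180 (22.6), AT4G35720 (19.7), AT3G10320 (18), AT3G28540 (17), AT5G48130 (16.3), AT3G61930 (16.1), AT1G48070 (15.4), AT3G28530 (15.2), AT3G62320 (14.4) and AT1G74010 (12). The annotation gives 15 of the 18 no name beyond the locus, and 10 of the 18 had the epidermis and lateral root cap as the next population. The largest difference over all probe sets, 7.32 ± 0.42, belonged to one for which the annotation names no gene.

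**Figure D1:**
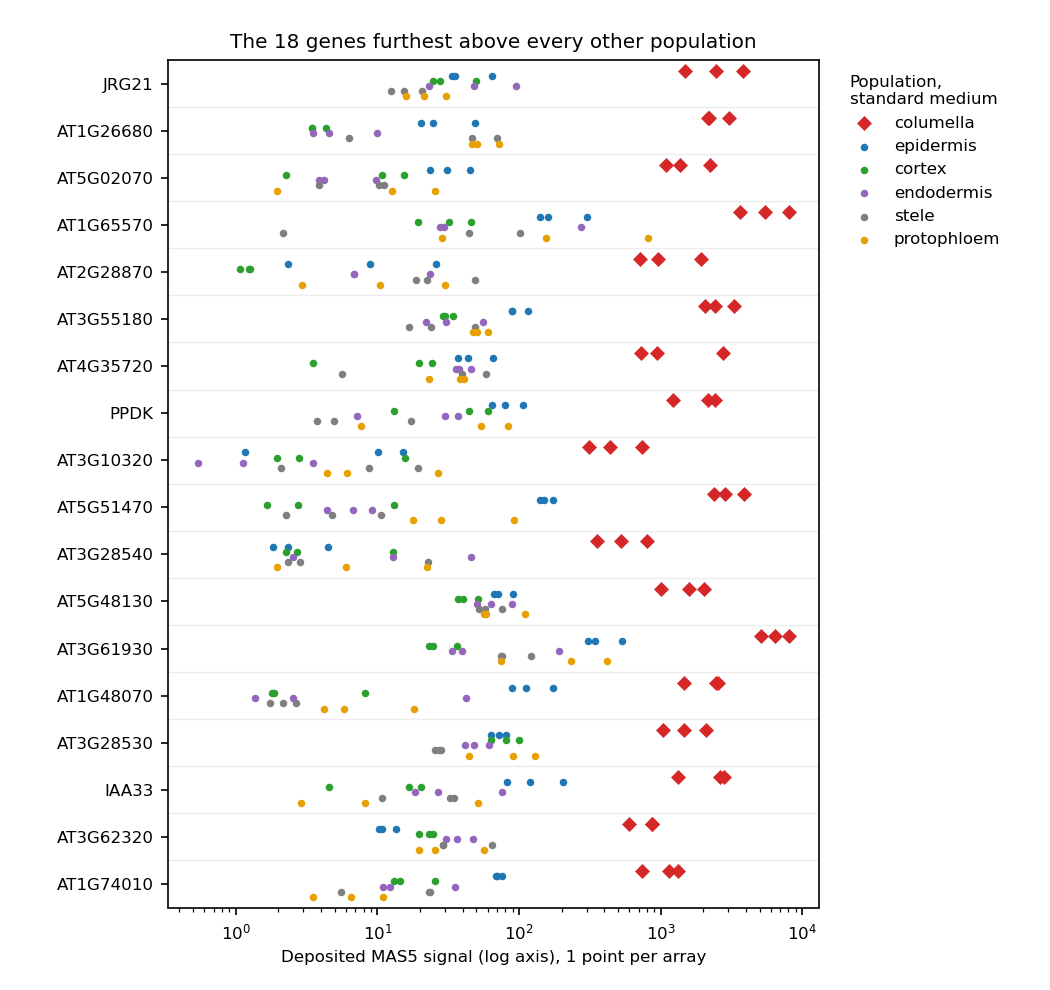
Signal of the 18 genes with the largest excess over the highest other population, 1 point per array on a log scale, with the 3 columella arrays set against the 15 other standard-medium arrays. Genes were taken only where the columella arrays did not overlap the others, so the columella points lie to the right in each row by choice. The other arrays of AT1G65570 reach 812.

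A further set was abundant in the columella without being restricted to it. The strictly enriched gene with the highest signal was AT5G54370, at 17096, 11964 and 7903 in the columella arrays and 151 to 6011 (median 704) in the rest. Its columella arrays did not overlap the others, but the epidermis mean of 5138 left an excess of only 2.30-fold. AT3G19430 came next, at 15093, 8942 and 7354 against 54.4 to 2520 (median 109), 5.03-fold over the epidermis mean of 2000. In 4 of the 6 enriched genes with the highest signal the next population was the epidermis and lateral root cap, and in the other 2, AT1G76600 and AT2G36950, it was the endodermis. Over all 584 enriched probe sets the median columella signal was 650, with 215 above 1000 and 18 at 100 or less. Columella replicate 3 was the highest of the 3 arrays for 100 of them (17.1%), against 232 for replicate 1 and 252 for replicate 2. Among all probe sets tested replicate 3 was highest for 31.0%. The median range between the 3 columella arrays was 0.77 (log2) for enriched and 0.64 for all probe sets.

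Of the 6 measured genes of starch metabolism, 4 were higher in the columella, against 20.3% of all probe sets, and all 4 met the strict rule. The list holds 35 genes, of which these 6 have a probe set that names them alone, and 0 were lower. The median difference of the 6 was 2.55, against 0.05 over all probe sets. APL4, a large subunit of ADP-glucose pyrophosphorylase, which makes the sugar nucleotide for starch, read 228, 409 and 542 in the columella and 0.947 to 49.8 (median 16.2) in the other arrays, without overlap. It exceeded the protophloem 7.64-fold (difference 3.58 ± 0.26, adjusted p = 5.18e-09). SBE2.2, a starch branching enzyme, read 541, 1125 and 701 against 79.5 to 171 (median 120), 4.98-fold over the next population. Enzymes that prepare or degrade the granule stood out as well. PWD, phosphoglucan water dikinase, which phosphorylates glucans at the granule surface, read 1287, 2261 and 1524 against 63.8 to 221 (median 136), an excess of 7.79-fold (adjusted p = 1.41e-10). DPE1, the plastidial disproportionating enzyme that acts on maltooligosaccharides, read 556, 1012 and 824 against 72.9 to 229 (median 113), an excess of 4.06-fold. In all 4 the columella arrays lay above every other array, and replicate 1 was the lowest columella array of each. APL3, another large subunit of the pyrophosphorylase (difference 0.25, adjusted p = 0.31), and the alpha-amylase AMY1 (-0.16) did not pass the test.

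Of the 14 genes listed for gravity signalling and auxin carriers, 4 were measured and 2 were higher, against 20.3% of all probe sets. AT1G72490 read 639, 1185 and 567 in the columella and 3.00 to 64.4 (median 12.5) elsewhere, so that the groups were far apart, 11.1-fold over the endodermis mean (difference 4.50 ± 0.33, adjusted p = 6.26e-09). PRAF1, which carries RCC1-like repeats, read 520, 602 and 428 against 99.3 to 234 (median 145), again without overlap and 2.54-fold over the epidermis. The other 2, AT5G12350 (0.38) and AT5G19420 (0.36), did not pass. All 4 measured genes of the 15 listed as root cap regulators were higher, against the same 20.3%. IAA20, of the Aux/IAA family, read 368, 840 and 581 against 2.46 to 134 (median 25.0), 5.62-fold over the protophloem. CR4, also known as ACR4, a receptor kinase that limits divisions of columella stem cells, read 101, 239 and 79.8 against 2.01 to 39.4 (median 7.01), 2.76-fold over the epidermis. CLE40, the peptide that acts with ACR4 in that control, read 169, 69.1 and 63.9, and its lower columella arrays fell under the highest other array (70.5), although the difference of 1.48 passed the test (adjusted p = 0.000217). BBM, an AP2-type factor of the root stem cell region, was higher than the mean of the others by 1.03 (adjusted p = 0.0114) but below the endodermis and quiescent centre population, at a mean of 124 against 139. Without columella replicate 2 the BBM difference was 0.79 and no longer passed (adjusted p = 0.11), nor did it after quantile normalisation (0.79, adjusted p = 0.0538).

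**Figure D2:**
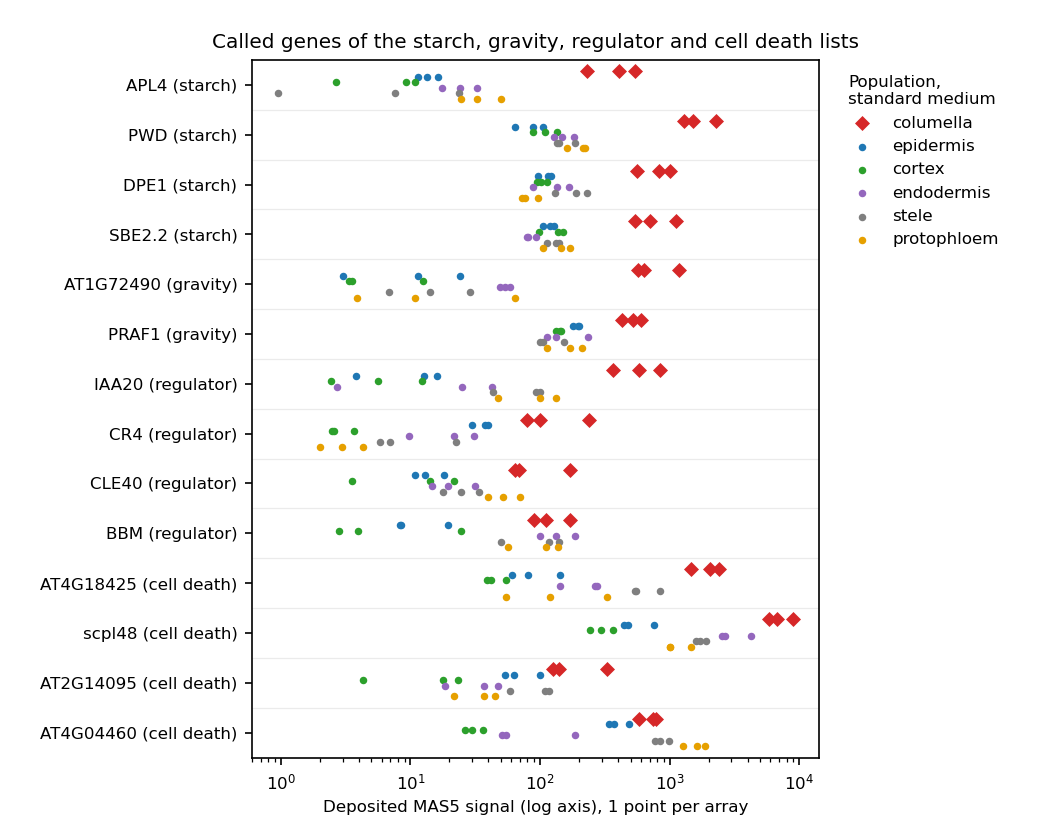
Signal of the called genes of the starch, gravity, regulator and cell death lists, 1 point per standard-medium array on a log axis, coloured by population. The columella points of APL4, PWD, DPE1 and SBE2.2 lie to the right of all others, whereas AT4G04460 is highest in the protophloem, at a mean of 1598.

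Auxin-response genes were divided in the columella. Of 24 listed genes 6 were measured, of which 4 were higher and 1 lower, with a median difference of 1.43. Over all probe sets 20.3% were higher and 14.9% lower. GH3.17, an enzyme of the GH3 family that joins amino acids to auxin, read 3749, 3915 and 3374 in the columella and 7.50 to 1136 (median 204) in the others. The columella stood 3.84-fold over the cortex, the next population, without overlap (difference 4.13 ± 0.37, adjusted p = 7.82e-08). WES1, also named GH3.5, read 630, 891 and 1099 against 84.0 to 386 (median 224), 2.68-fold over the endodermis. IAA30 read 224, 476 and 218 against 11.9 to 123, 2.24-fold over the stele. GH3.1 and GH3.3 followed other patterns. GH3.1 was higher by 0.89 (adjusted p = 0.0155) while lower than in the epidermis. GH3.3 was lower by 1.29 (difference -1.29, adjusted p = 0.0293), with columella values of 95.4, 7.54 and 51.5 and a cortex mean of 1573. Neither call held without columella replicate 2, where the adjusted p was 0.15 for GH3.1 and 0.325 for GH3.3. Of 7 tested Aux/IAA genes 4 were higher, IAA33, IAA20 and IAA30 by the strict rule and IAA29 by 0.84, the last not passing without columella replicate 2 (adjusted p = 0.0687).

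All 4 measured members of the developmental cell death list of 10 genes were higher in the columella. AT4G18425 read 2054, 2391 and 1464 against 39.2 to 850 (median 144), 2.99-fold over the stele. The serine carboxypeptidase-like gene scpl48 read 8988, 6786 and 5810 against 243 to 4236 (median 1012), 2.30-fold over the endodermis. Both separated the columella from every other array, and AT2G14095 did as well, at 331, 139 and 127 against at most 118. AT4G04460 was different, higher than the mean of the others by 1.22 but highest in the protophloem (1598 against 703 in the columella), and the difference did not pass when the cortex was left out of the comparison (0.55, adjusted p = 0.13). The serine carboxypeptidase-like family went both ways, with 7 of 21 tested members higher and 3 lower and a median of 0.38, against 20.3% and 14.9% over all probe sets. scpl20 led them, at 3077, 2186 and 2452 against 47.9 to 326 (median 143), 9.84-fold over the stele (difference 4.04 ± 0.21, adjusted p = 7.55e-11).

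Of 8 tested U-box ubiquitin ligases, which attach ubiquitin to target proteins, 6 were higher and 0 lower, with a median difference of 1.38, against 20.3% higher over all probe sets. PUB19 read 4430, 3415 and 2827 against 252 to 1485 (median 418), 2.92-fold over the cortex (adjusted p = 2.53e-07). PUB25 read 353, 519 and 405 against 32.2 to 159 (median 75.0), 3.73-fold over the endodermis. The columella was apart from all other arrays in both, and also in PUB22 (1744 to 3048 against at most 1738), but not in PUB23, whose cortex mean was 1596 against 1952. Among 8 ATG8 and ATG3 genes of autophagosome formation 5 were higher and 0 lower, with a median of 0.72. ATG8G read 698, 597 and 449 against 66.1 to 271 (median 129), 2.63-fold over the endodermis and without overlap. ATG8F, by contrast, was as high in the protophloem (mean 2319) as in the columella (2359). The count of higher ATG8 and ATG3 genes was 3 without columella replicate 1 or 2 and 3 with the GAPDH ratio as a covariate.

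Among cell wall families, the GH9 endoglucanases and the expansins had members in both directions. Their shares were near those of all probe sets (20.3% higher and 14.9% lower), and they are described by single genes. Of 11 tested GH9 endoglucanases, which cut cellulose-like glucans, 3 were higher and 1 lower, with a median of 0.28. GH9B6 read 3796, 1472 and 2818 in the columella and 2.52 to 771 (median 11.7) in the others. Its arrays did not overlap, and the protophloem was the one other population with a sizeable signal, at a mean of 626, 4.01-fold below (difference 5.53 ± 0.32, adjusted p = 2.28e-10). GH9B13 was higher by 1.62 and GH9B7 lower by 0.73 (difference -0.73). GH9C2 was higher by 0.66 with all arrays, and without columella replicate 2 or 3 its adjusted p was 0.0913 and 0.0811. Of 14 expansins, which loosen walls, 4 were higher and 2 lower, with a median of 0.07 that became -0.08 after quantile normalisation, when 3 were higher and 4 lower. Without columella replicate 2 the lower count was 1. EXPA4 was higher by 2.99 and EXPA9 by 2.67, but the epidermis reached 437 for EXPA4 and 3072 for EXPA9, against columella means of 799 and 1403. EXPB1 was lower by 2.41 (difference -2.41), with an epidermis mean of 2024 and a columella mean of 56.2. Smaller wall families had fewer higher than lower members. Of 7 tested cellulose synthase-like genes 0 were higher and 2 lower, and of 4 pectin methylesterases 0 and 2. Of 7 xyloglucan endotransglucosylases 1 was higher and 2 lower. With the GAPDH ratio as a covariate the lower counts of these families were 1, 0 and 2. Of the 9 genes listed for root cap cell separation 2 were tested, AT1G65570, described above, and AT2G43890, which did not pass (-0.72).

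**Figure D3:**
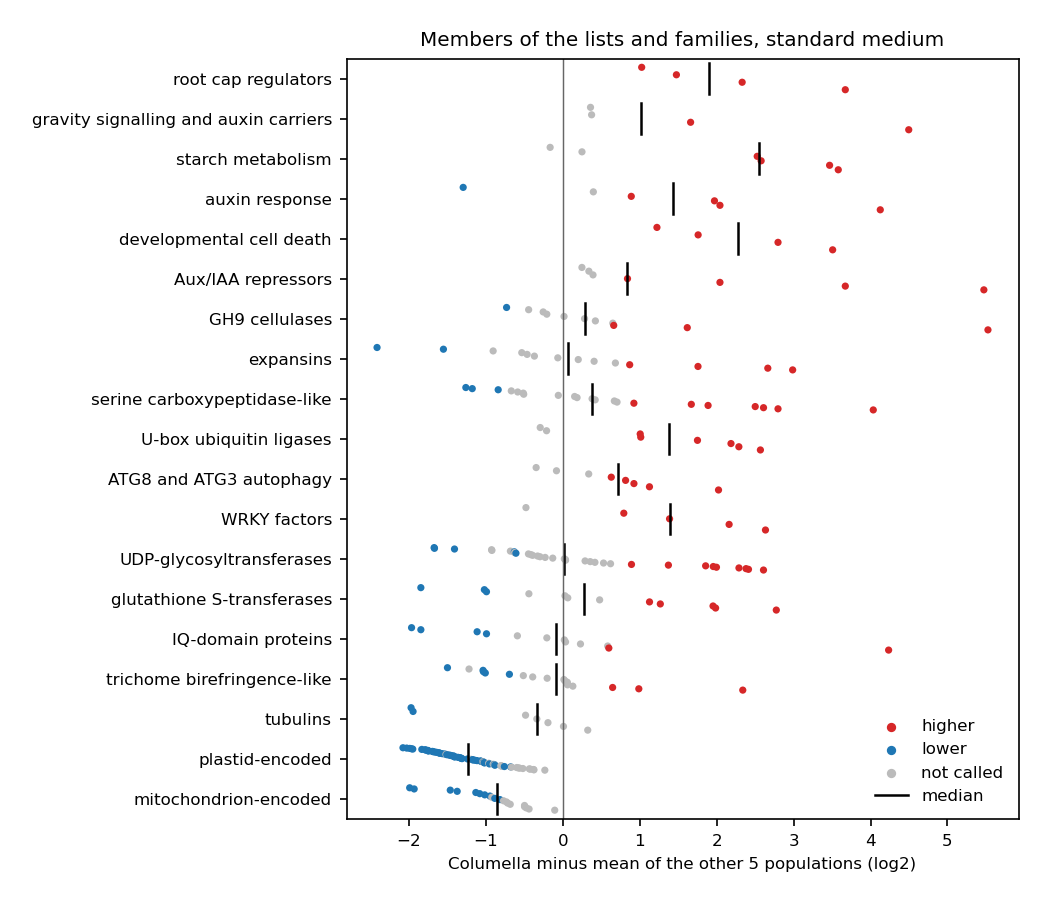
Differences of the members of pathway lists and families between the columella and the mean of the other 5 populations, on the log2 scale, with 1 point per tested probe set and the median of each list marked. Starch metabolism has its median at 2.55 and the plastid-encoded probe sets at -1.24, against 0.05 over all probe sets.

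Regulators and signalling genes included several with clear separation. AGL21, a MADS-box factor, read 1192, 1394 and 1144 in the columella against 97.7 to 237 (median 159), 6.16-fold over the stele (difference 2.90 ± 0.17, adjusted p = 4.2e-10). IQD22, a member of the calmodulin-binding IQ-domain family, read 1864, 2048 and 893 against 4.15 to 556 (median 46.1), 5.15-fold over the cortex. Within that family of 12 the directions were mixed, with 2 higher and 4 lower, against 20.3% and 14.9% over all probe sets. Without columella replicate 1 or 3, 1 was higher. CHX20, a cation/proton exchanger, read 359, 189 and 297 against 3.1 to 65.9 (median 7.76), 5.85-fold over the epidermis. CML37, a calmodulin-like protein, read 1551, 964 and 1562 against 43.7 to 836, 2.14-fold over the endodermis. None of these 4 genes overlapped between the columella and the other arrays. Of 5 tested WRKY factors, which bind W-box elements in stress and immune responses, 4 were higher, against 20.3% of all probe sets, with a median of 1.39. WRKY22 read 1882, 780 and 1063 against 54.6 to 662 (median 290) and met the strict rule. WRKY6 (2.63) and WRKY53 (1.39) were higher against the mean, though some of their columella values lay within the range of the others. Of the 7 tested genes with a bHLH symbol, 0 passed the test.

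Families of enzymes that modify small molecules had members in both directions. Of 33 UDP-glycosyltransferases, which attach sugars to hormones and other small molecules, 9 were higher and 5 lower, with a median of 0.02, against 20.3% and 14.9% over all probe sets. The lower count was 9 after quantile normalisation, 1 without columella replicate 2 and 3 without columella replicate 1. UGT71B5 read 247, 323 and 381 against 4.12 to 85.2 (median 41.6), 4.08-fold over the protophloem. UGT87A2 was 3.40-fold over the stele, and UGT76C2, which glucosylates cytokinins, was 2.59-fold over the cortex at 363, 782 and 643. The columella arrays of all 3 stood above the other 15. Of 12 glutathione S-transferases 5 were higher and 3 lower. GSTU22 was higher by 2.78, with values of 4976, 3338 and 2885, the lowest of which fell under the highest epidermis array. CYP71B6, a cytochrome P450, read 1589, 1261 and 1217 against 41.0 to 597, 2.63-fold over the cortex. Of 3 tested jasmonate genes JRG21 alone passed; AT5G05600 (0.86, adjusted p = 0.065) and AT2G38240 (-0.58) did not.

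Depletion in the columella was shallower and concerned fewer genes. The 12 genes with the largest shortfall were taken only from those whose 3 columella arrays did not overlap the other 15. The lack of overlap in these 12 was therefore fixed by the choice. AT3G15240 had the deepest shortfall, with columella values of 6.05, 2.99 and 2.43 against 74.9 to 521 (median 293) in the other arrays. It lay 4.93-fold under the cortex, the next lowest population, on the scale of signal + 16 (difference -3.62 ± 0.31, adjusted p = 3.89e-08). AT2G20515 read 94.6, 51.5 and 84.6 against 205 to 12017 (median 734), 4.30-fold under the endodermis. Both stayed below every other array. UPB1, a bHLH-type factor that sets peroxidase activity at the transition from division to elongation, read 129, 271 and 388 against 572 to 1516 (median 888). It was 3.06-fold under the endodermis without overlap (difference -1.90 ± 0.28, adjusted p = 3.16e-05). IQD18 read 5.47, 10.03 and 14.8 against 28.5 to 232 (median 70.4), 2.72-fold under the protophloem. GPDHC1, a cytosolic glycerol-3-phosphate dehydrogenase, read 11, 5.55 and 36.5 against 48.7 to 365, 2.17-fold under the epidermis. Neither overlapped the other arrays. The remaining genes of the 12 were AT5G67390 (3.02-fold under the lowest other population), AT5G57970 (2.95), AT5G50370 (2.48), AT4G28703 (2.39), AT2G07777 (2.20), AT4G32460 (2.18) and AT5G11420 (2.15). In 7 of the 12 the columella mean was below 20, near the offset, so that their folds are compressed. BZIP61 met the strict rule at 2.55, 5.96 and 32.5, but its highest columella value lay above the lowest other array (30.1).

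**Figure D4:**
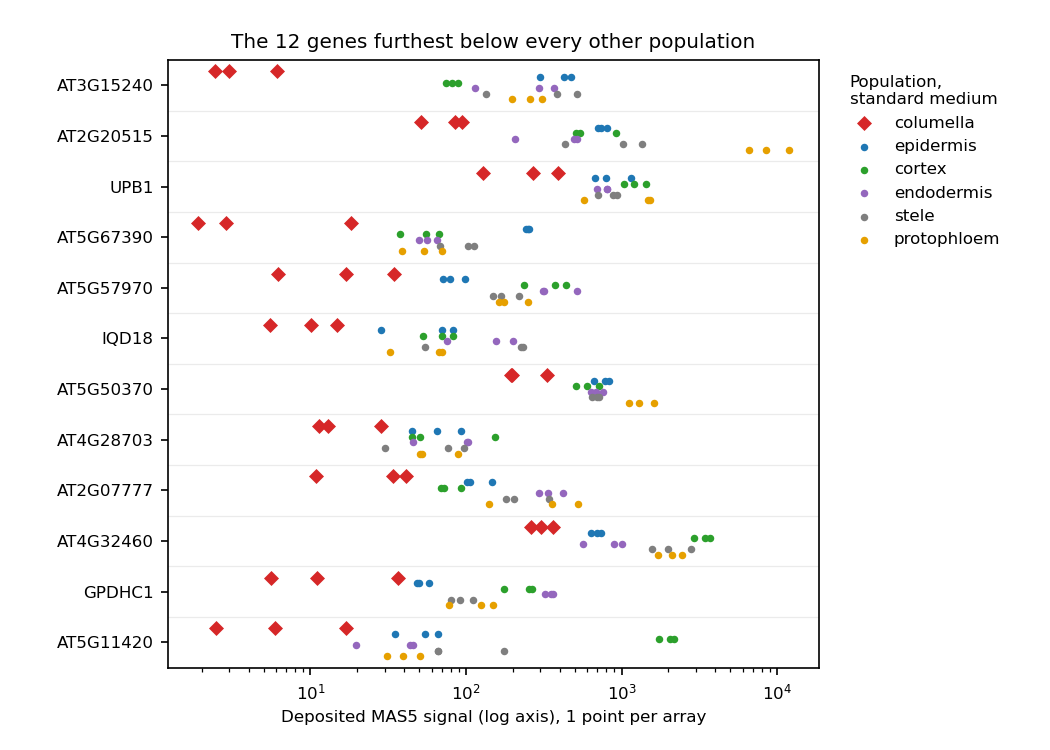
Signal of the 12 genes with the largest shortfall under the lowest other population, 1 point per array on a log scale. Genes were taken only where the columella arrays did not overlap the others, so the 3 columella points lie to the left of the 15 others in each row by choice. UPB1 lies at 129 to 388 against 572 to 1516.

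Many transcripts encoded in the organelles were lower in the columella than in the mean of the other populations, but not lower than in each of them. Of 69 plastid-encoded probe sets 48 were lower and 0 higher, with a median difference of -1.24. Their median signal was 166, 208 and 154 in the columella arrays, however, which was close to that of the cortex (173, 164 and 170) and the epidermis (133, 93.9 and 161). It was 909 to 1288 in the endodermis and 643 to 3992 in the protophloem, which was the highest population for 64 of the 69. The columella was the lowest population for 15, fewer than the epidermis (31) or the cortex (21). Of 20 mitochondrion-encoded probe sets 10 were lower, with a median of -0.85, and the protophloem was highest for all 20. Without columella replicate 3 the counts fell to 30 and 5, with the GAPDH ratio as a covariate they were 65 and 18, and with the other 15 arrays taken as 1 group they were 0 and 0. Among tubulins and histones 2 of 7 tested members each were lower, against 14.9% of all probe sets, too few to say anything of the families. The lower tubulins were TUB1 and TUB5, with differences of -1.97 and -1.95, both highest in the cortex, with means of 4284 and 3352 there against 254 and 257 in the columella. The protophloem mean was lower still for TUB1 (70.2) and for TUB5 (185). The lower histone genes were HTB11, at 442, 398 and 517 against 520 to 1829, and HTB2, which did not pass without columella replicate 2 or 3 (adjusted p = 0.106 and 0.114).

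The salt arrays, which the strict rule did not use, gave the same measure on other arrays. The gene lists, by contrast, were chosen with results of the whole series known. On the salt arrays 2091 probe sets (12.5%) were higher in the columella than the mean of the other 5 populations and 2495 (14.9%) lower. Without columella salt replicate 1 these counts were 1368 and 1332, and without columella salt replicate 2 they were 1354 and 1208. Of the 584 probe sets enriched on standard medium 517 (88.5%) were higher there, 0 were lower, and 478 had the columella as the highest population, although 215 met the strict rule again. Of the 44 depleted ones 42 (95.5%) were lower and 18 met the strict rule. The enriched probe sets differed from the mean by a median of 2.53 on standard medium and 1.88 with salt, and the depleted ones by -1.99 and -1.70. The values on standard medium selected these probe sets by the strict rule, so the larger figure is in part fixed by the choice. The differences of the starch genes with salt were 3.76 for APL4, 3.39 for PWD, 2.43 for DPE1 and 2.78 for SBE2.2. All 18 of the most enriched genes were higher with salt as well, and 10 of the 12 most depleted genes were lower.

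The test of the difference between media, on all 36 arrays, called 427 probe sets (2.55%), of which 368 had a smaller and 59 a larger columella difference with salt. The median signal per array averaged 91.6 in the columella on standard medium and 70.1 with salt, against 62.5 and 87.6 in the cortex. The test was not rerun with another scaling, so the part of scale in this split was not tested. Among the 584 enriched probe sets 109 were called, all of them smaller with salt. The 584 were chosen by a large difference on standard arrays that also enter this test. Their common direction is therefore in part fixed by the choice. A smaller difference came with different signals. In some of these genes the columella signal itself, as deposited, was lower with salt. GH3.17 had a columella mean of 3679 on standard medium and readings of 354, 238 and 407 with salt, so that the difference from the other 5 was 0.51 and did not pass there (adjusted p = 0.433). The difference between media was -3.62 (adjusted p = 0.00131, limma). WES1 had a columella mean of 873 on standard medium and readings of 123, 169 and 229 with salt, and its difference between media was -2.60 (adjusted p = 0.000109). The endoglucanase GH9B6 had a columella mean of 2696 and then 337 with salt (-2.76, adjusted p = 0.00695). WRKY53, which is not among the 584, had 290 and then 69.6 (-2.36, adjusted p = 0.00458). In others the columella signal was as high or higher with salt, and the means of other populations lay nearer to it. PUB19 read 4433, 3960 and 4174 in the columella with salt, against a standard mean of 3557, while its epidermis means were 360 and 3405 and its stele means 553 and 3315 (-1.75, adjusted p = 0.00748). UGT87A2 had a columella mean of 1012 on standard medium and 2508 with salt, with epidermis means of 194 and 2619 (-1.80, adjusted p = 0.00841). WRKY22 combined both, with a columella mean of 1241 and then 621 and a cortex mean of 253 and then 2000 (-2.45, adjusted p = 0.0104). The counts between media depended on single arrays. Of the 584 enriched probe sets 60 were called without columella standard replicate 1 and 58 without replicate 2, and 49 and 30 without columella salt replicates 1 and 2. Over all probe sets, the counts smaller and larger with salt were 57 and 12 without columella salt replicate 2, and 906 and 261 without columella salt replicate 3.

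**Figure D5:**
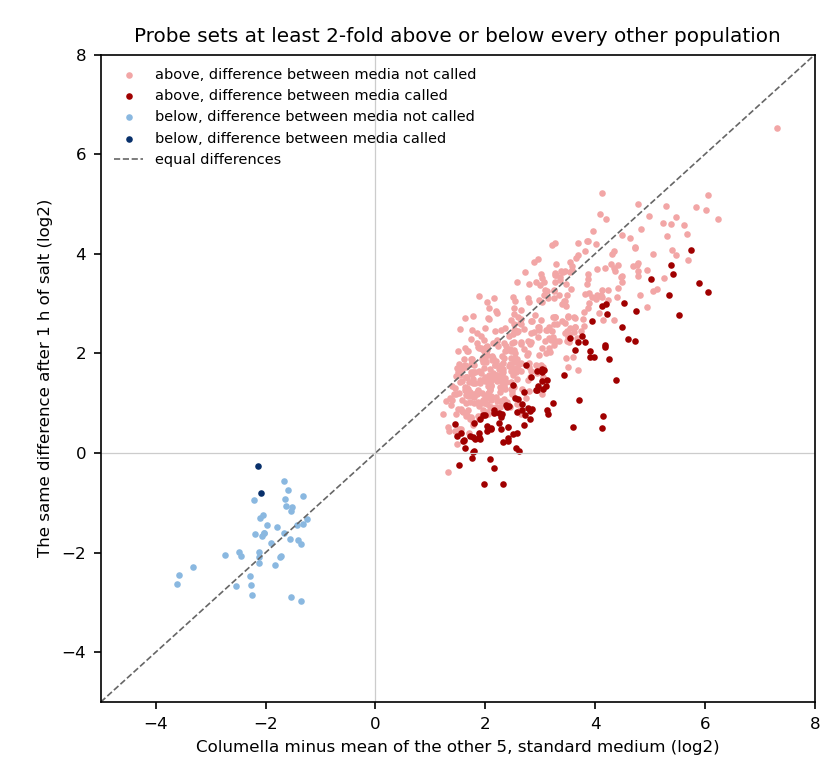
Difference between the columella and the mean of the other 5 populations on standard medium and with salt, on the log2 scale, for the enriched and depleted probe sets. PWD lies at 3.47 on standard medium and 3.39 with salt, whereas GH3.17 lies at 4.13 and 0.51.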

How the data were processed

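Per the submitters' processing notes, the authors used MAS5 to make the deposited table of signal intensities, on a linear scale, for 36 ATH1 arrays; the sources used here do not give its version or settings. No counts stand behind these values, and the number of arrays limits the precision. Each array was used as deposited. Of 22810 probe sets, 64 controls were left out, 13513 name 1 gene in the platform annotation, 503 several and 8730 none, and 13436 were matched to a RefSeq locus. Probe sets were kept if at least 3 of the 18 standard arrays read them above that array's 40th percentile, values were taken as log2(signal + 16), and a mean for each of the 6 populations was fitted with limma 3.58.1 (R 4.3.3; lmFit and eBayes with a mean-variance trend). The contrast was the columella minus the unweighted mean of the other 5, with Benjamini-Hochberg adjustment over all probe sets tested and a threshold of 0.05. Salt arrays were fitted alone in the same way, and the difference between media on all 36 arrays.

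Genes were named by rule: among probe sets with 1 gene and columella arrays that do not overlap the other 15, the 18 with the largest excess over the highest other population and the 12 with the largest shortfall, the 6 enriched genes with the highest signal, and up to 4 called members of each list or family. The members and lists were chosen with earlier results of these data known. Families were collected by symbol, one pattern (defensins) being corrected after its values were seen, so members without a symbol are missing from them. The fit was also run on simulated arrays in which the other 5 populations did not differ, unlike in these data, so nothing is drawn from that run. Alternatives were other offsets, quantile normalisation, other filters, other sets of arrays, a replicate block, the GAPDH ratio as a covariate, and leaving out each array or population. Promoter sequences were not analysed here. Tables and figures were made with Python 3.11.15, pandas 2.3.3, numpy 2.4.6 and matplotlib 3.10.9.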

Additional observations from a re-analysis of the deposited data

Results flagged for a closer look

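For 18 of the named genes the columella difference with salt departed from that on standard medium by the test of the difference itself (limma on all 36 arrays, adjusted p under 0.05). The genes were named by their differences on the standard arrays, which also enter this test. A difference nearer to none with salt is therefore in part fixed by the choice. Among the most enriched genes the difference was smaller with salt by 2.82 for AT1G48070 (-2.82, adjusted p = 0.00272), by 2.37 for AT5G48130 (-2.37, adjusted p = 0.000109) and by 2.02 for AT3G62320 (-2.02, adjusted p = 0.000503), and these 3 were called in all 36 fits that left out 1 array. Their columella means were 2152, 1535 and 779 on standard medium and 326, 282 and 189 with salt. It was also smaller for AT2G28870 (-2.16, called in 32 of 36 such fits), AT5G02070 (-1.68, 33 of 36) and AT3G28540 (-1.51, 32 of 36). Among the depleted genes AT5G67390 moved the other way (1.87, adjusted p = 0.00458, 36 of 36), with a columella mean of 7.65 on standard medium and 20.4 with salt, and an epidermis mean of 249 and then 23.3.

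Genes of the lists and families made up the rest, all with a smaller difference with salt. The values called in all 36 such fits were those of the GH3 enzymes GH3.17 (-3.62) and WES1 (-2.60), the carboxypeptidase-like scpl28 (-2.13), WRKY53 (-2.36) and the ubiquitin ligase PUB19 (-1.75). GH9B6 (-2.76) and UGT87A2 (-1.80) were called in 35, WRKY22 (-2.45) in 34, the expansin EXPA4 (-1.88) and PUB25 (-1.56) in 33, and the dehydrin COR47 (-1.29, adjusted p = 0.0353) in 31. COR47 was high in the columella on standard medium (12418, 13964 and 7841) and nearly as high in the endodermis, at a mean of 9852.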

How the results depend on the processing

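The count of enriched probe sets changed by less than 1.5 times in each alternative run. The count of depleted ones, 44, became 16 with an offset of 64, 75 with an offset of 4, 73 after quantile normalisation, 84 with the GAPDH ratio as a covariate, and 96, 85 and 188 without the epidermis, the cortex and the protophloem population; with fewer populations the lowest other mean can only rise or stay. Treating the other 15 arrays as 1 group left 1072 higher and 150 lower probe sets, since differences between those populations then count as spread. After quantile normalisation 2627 probe sets were higher than in the cortex. Leaving out 1 array gave 2505 to 3686 higher and 1535 to 3002 lower probe sets, and 572 to 672 enriched and 26 to 89 depleted ones. The same gave 4336 to 5555 higher and 3001 to 3936 lower than in the epidermis, 3186 to 4714 and 2090 to 2863 for the cortex, 2382 to 3477 and 1816 to 2601 for the endodermis, 2094 to 3182 and 2234 to 3658 for the stele, and 3112 to 4208 and 2227 to 2964 for the protophloem. On the salt arrays it gave 1354 to 2303 higher and 1208 to 2724 lower. Between media it gave 57 to 906 smaller and 12 to 261 larger with salt, and 30 to 163 among the enriched probe sets; the count of larger differences was also 91 without columella standard replicate 3, 39 without epidermis standard replicate 2 and 91 without cortex salt replicate 3.

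CLE26 turned from -1.10 to 0.21 without the protophloem population, which held nearly all of its signal (mean 2418), and CYP71B34 from -0.62 to 0.041 without the cortex population, where its mean was 463. Of the 199 named genes with a call, 120 lost it with the other 15 arrays as 1 group, 28 with the GAPDH covariate, 11 after quantile normalisation, and 48, 31 and 19 without columella replicates 2, 1 and 3. The replicate block gave 3469 higher and 2655 lower probe sets and 584 and 44 by the strict rule. The labels do not say that equal replicate numbers pair arrays, and the main fit did not pair them. On the standard arrays, deviations of same-numbered arrays correlated above 0.1 in 14 of 45 pairs. Their median was 0.027, against -0.014 for unlike numbers, and these values do not decide whether the numbers mark a batch. The salt arrays were not checked in this way. In each of their populations replicate 3 had the highest GAPDH ratio, 0.223 to 0.406. The test between media was not rerun with a replicate block. Planned promoter motif counts were not run, because no promoter sequences were at hand.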

Other observations

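Of 7 tested NET proteins, which link membranes to actin, 3 were higher and 1 lower, against 20.3% and 14.9% over all probe sets. Without columella replicate 2 only NET4B was higher. NET1C did not pass without columella replicate 1, 2 or 3 (adjusted p = 0.0792, 0.0865 and 0.16), nor NET3A without replicate 2 (0.0773). NET4B led them at a difference of 2.26 ± 0.44 (standard error; adjusted p = 0.00051, limma), its columella mean 0.66 (log2) above the highest other population. Among 18 trichome birefringence-like genes, whose known members act in acetylation of wall polymers, 3 were higher and 5 lower, and 2 and 3 without columella replicate 2. TBL34 read 278, 528 and 642 in the columella, but the stele reached a mean of 463 against 483 there. TBL41 was lower (adjusted p = 0.00019, limma), with a columella mean of 84.4, close to the epidermis at 88.0 and far under the cortex at 1487.

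Genes of defence and secondary metabolism were mixed. Of 3 jacalin lectins JAL33 (1.49) and JAL34 (1.31) were higher and JAL22 (-0.70) was lower. Over all probe sets 20.3% were higher and 14.9% lower. Neither JAL34 nor JAL22 passed without columella replicate 2 (limma, adjusted p = 0.0681 and 0.0676) or replicate 3 (0.052 and 0.0758). CHIL, a chalcone isomerase-like protein of flavonoid synthesis, was lower by 1.45 (difference -1.45, adjusted p = 0.00163, limma), while DFR (0.08) and UGT78D2 (-0.33) did not pass. Both tested class III peroxidases were lower, against 14.9% of all probe sets, PRXR1 by 1.24 (difference -1.24) and Prx37 by 1.08 (difference -1.08). Neither passed without columella replicate 2 (limma, adjusted p = 0.0771 and 0.0597). PRXR1 also did not pass with the GAPDH covariate (adjusted p = 0.0528), nor Prx37 without the endodermis population (-0.25, adjusted p = 0.558). Of 10 SWEET sugar transporters 3 were higher, against 20.3% of all probe sets, none of them by more than 0.90. However, 0 were higher without columella replicate 1, after quantile normalisation or with the GAPDH covariate, and 1 without columella replicate 2.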
